A study of Arabidopsis thaliana with 30 samples.

Results

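The jasmonate genes examined here are 41 loci of Arabidopsis thaliana that encode the enzymes of jasmonate synthesis, the jasmonate receptor and its repressors, the basic helix-loop-helix (bHLH) factors they act on, the enzymes that inactivate the hormone, and a pair of storage protein genes that respond to it. They were taken by locus out of 27417 genes in the count table, from a list that was drawn up with earlier results of these data known and so is not independent of them. All 41 had a row, and 40 passed the filter on low counts and were tested. The remaining gene, the phospholipase gene DAD1 (AT2G44810, a gene whose name has no link to the day abbreviation below), had 0 counts in all 30 libraries, which allows a level of up to 0.0115 CPM (defined below) over the 261736521 counts of the series.

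RNA was sequenced from shoots of Col-0 plants grown on MS medium for 10 days and on ceramic granular soil for 5 days. Pots then stood for 3 days in water (water arm, 0 mM ethanol) or in 10 mM ethanol (ethanol arm), after which watering stopped in both arms. Shoots were taken on the day watering stopped (0 DAD, for days after drought) and at 1, 3, 5 and 7 DAD, with 3 libraries in each of the 10 groups. Every group carried the same Col-0 genotype, and the 0 DAD groups had the pretreatment but no drought. No continuously watered plants of the later days were among these libraries, so drought, plant age and harvest day cannot be told apart in a comparison between days. The labels do not say whether the 3 libraries of a group came from separate pots, so p-values measure only the spread between these libraries.

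Jasmonates are lipid hormones made from linolenic acid. Lipoxygenases, allene oxide synthase and allene oxide cyclase work in the chloroplast, OPR3 and enzymes of beta-oxidation finish jasmonic acid in the peroxisome, and JAR1 joins it to isoleucine to give the active form. The F-box protein COI1 binds that form together with JAZ repressors and marks the JAZ proteins for degradation, which frees MYC2 and related bHLH factors to act on genes with G-box motifs. JAZ genes and genes of hormone inactivation are themselves among the targets, and in leaves the pathway is known for the responses to wounding, insects and drought and for leaf senescence.

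MYC2-type factors bind the G-box, so the 250 bases before the annotated start of each gene were searched for CACGTG, a palindrome that contains the ACGTG core bound by bZIP factors of the abscisic acid pathway. The motif was found upstream of 6 of the 41 jasmonate genes (14.6%), which were AOS, ACX1, JAZ2, JAZ3, JAZ7 and JAZ8, against 6.49% of 27443 protein-coding genes. The variant CACATG, read on both strands, was found upstream of 7 (17.1%) against 11.1%. A match is only a description of letters in this window, and the genes were not chosen at random. The sequences below are shown because they carry the motif (capitals) and belong to 2 genes with higher and 2 with lower transcript levels in the ethanol arm at 7 DAD; these were picked after those values were seen. They are RefSeq sequence of build TAIR10.1, written 5′ to 3′ toward the gene. AOS lies on the minus strand with its window at chr5:17099596-17099845, JAZ8 on the plus strand at chr1:10596102-10596351, ACX1 on the minus strand at chr4:9428896-9429145 and JAZ7 on the plus strand at chr2:14572780-14573029.
AOS: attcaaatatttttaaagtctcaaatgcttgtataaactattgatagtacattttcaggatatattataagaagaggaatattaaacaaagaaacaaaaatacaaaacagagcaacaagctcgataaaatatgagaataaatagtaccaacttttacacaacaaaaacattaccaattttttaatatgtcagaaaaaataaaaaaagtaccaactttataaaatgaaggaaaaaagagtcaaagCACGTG
JAZ8: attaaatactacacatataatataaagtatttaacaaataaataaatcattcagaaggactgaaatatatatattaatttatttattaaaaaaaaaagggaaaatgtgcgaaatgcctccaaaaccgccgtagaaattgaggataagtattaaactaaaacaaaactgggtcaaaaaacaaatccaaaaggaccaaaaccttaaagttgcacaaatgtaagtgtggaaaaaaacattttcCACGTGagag
ACX1: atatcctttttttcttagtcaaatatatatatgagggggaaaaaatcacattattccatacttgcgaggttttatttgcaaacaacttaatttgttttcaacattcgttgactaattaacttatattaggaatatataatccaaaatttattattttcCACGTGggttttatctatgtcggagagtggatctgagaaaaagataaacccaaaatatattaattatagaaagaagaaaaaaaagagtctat
JAZ7: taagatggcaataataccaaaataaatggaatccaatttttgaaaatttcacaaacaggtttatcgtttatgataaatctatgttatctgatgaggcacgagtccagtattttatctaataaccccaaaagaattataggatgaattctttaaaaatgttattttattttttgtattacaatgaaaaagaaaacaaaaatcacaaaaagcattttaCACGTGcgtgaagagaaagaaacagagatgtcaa
The motif ends 0 bases before the annotated start of AOS, 4 before that of JAZ8, 86 before that of ACX1 and 28 before that of JAZ7. Of the other genes with the motif, JAZ2 and JAZ3 were not called between the arms at 7 DAD, and the calls of JAZ7 and JAZ8 were each lost when some single libraries were left out.

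Libraries held 3625884 to 14735127 counts in genes, of which the 41 jasmonate genes took 0.151% to 0.443%. Levels are CPM values, the counts of a gene relative to its library's total after that total was scaled by TMM (trimmed mean of M-values), in the usual CPM unit and not corrected for gene length. Values of 1 group stand in the order of replicates 1, 2 and 3, and where 2 sets follow each other without a group, the water arm comes first. A gene was called at an adjusted p below 0.1, the threshold of the study, from 1 edgeR quasi-likelihood fit to all 30 libraries with Benjamini-Hochberg adjustment over 19249 genes. The 5 leaf markers (RBCS1A, CAB1, RCA, DRT112 and GAPA) summed to 36819 to 40487 CPM in the water arm at 5 DAD, 4504 to 7352 in the water arm at 7 DAD and 28427 to 32126 in the ethanol arm at 7 DAD. Of 5 root markers, 4 were too low to be tested, and PYK10 gave nearly all of a sum of 4.10 to 141 CPM. In such bulk tissue, fewer cells of a type and less RNA per cell cannot be told apart.

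At 7 DAD, jasmonate genes differed between the arms in both directions along the pathway. Transcripts of 6 genes of the chloroplast steps and of OPR3, OPCL1, MYC2, MYC4 and 5 JAZ genes were higher in the ethanol arm. Those of the beta-oxidation enzymes ACX1 and KAT2, of COI1, 4 other JAZ genes, JAM1 and the inactivation genes CYP94B3 and ST2A were higher in the water arm. In all, 29 of 40 tested genes were called (72.5%), 19 higher and 10 lower in the ethanol arm, against 60.5% of all genes at this day (32% higher and 28.6% lower). The median log2 fold change was 0.52 over the jasmonate genes and 0.05 over all genes tested. With unadjusted library totals in place of TMM, the median over all genes moved to 0.26, the split over all genes from 6152 higher and 5501 lower to 7316 and 4305, and that of the jasmonate genes to 20 and 9.

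**Figure D1:**
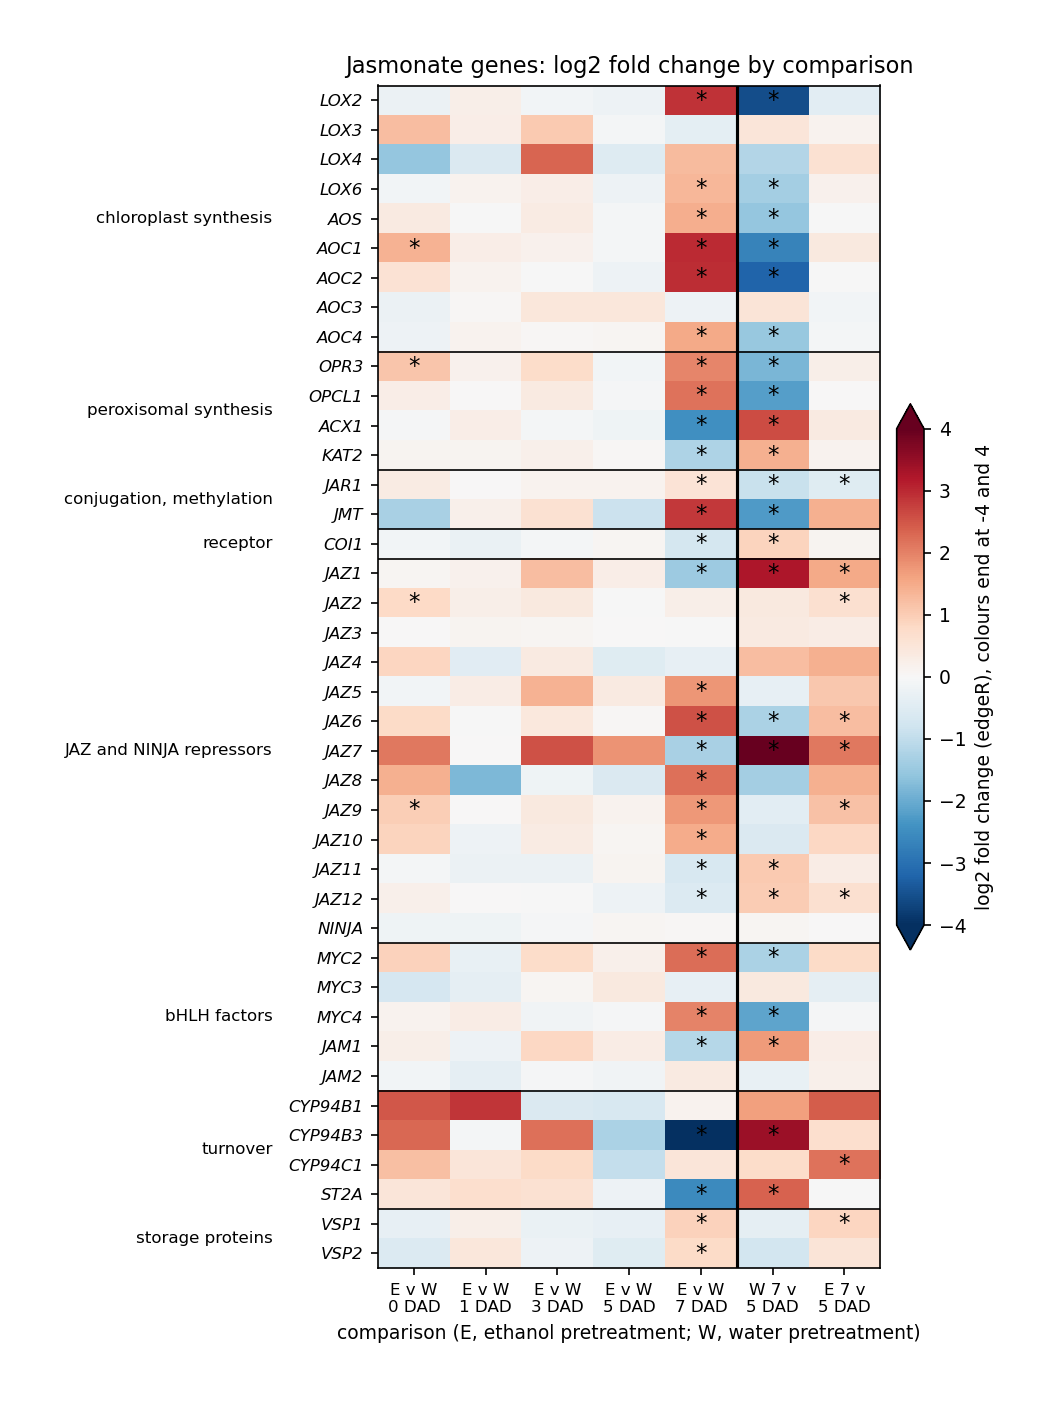
Colour shows the log2 fold change of the 40 tested jasmonate genes (vertical axis, grouped by role) in 7 comparisons (horizontal axis), with an asterisk where a gene was called. In the first 5 columns red is higher in the ethanol arm: 4 genes were called at 0 DAD, 0 at 1, 3 and 5 DAD and 29 at 7 DAD. The last 2 columns give the change from 5 to 7 DAD in each arm, with 23 calls in the water arm and 9 in the ethanol arm.

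Of the 9 tested genes of the chloroplast steps, 6 were higher in the ethanol arm at 7 DAD and 0 lower. Over all genes 32% were higher and 28.6% lower. LOX2 (AT3G45140), the main leaf 13-lipoxygenase, had 53.5, 31.6 and 31.5 CPM in the water arm and 261, 297 and 311 CPM in the ethanol arm. At 5 DAD it had 382, 337 and 639 CPM in the water arm and 349, 391 and 433 CPM in the ethanol arm, and its range over the 18 libraries of 0, 1 and 3 DAD was 175 to 546 CPM. All 3 water libraries of 7 DAD therefore lay below the other 27 libraries. The log2 fold change between the arms was 2.9 (SE 0.29 and adjusted p = 1.36e-09). AOS (AT5G42650), the allene oxide synthase that acts next, had 53.1, 61.9 and 50.4 CPM in the water arm and 148, 103 and 205 CPM in the ethanol arm, a difference of 1.47 (SE 0.2 and adjusted p = 2.94e-07). Its 5 DAD values were 175, 134 and 176 CPM in the water arm and 149.98, 139 and 174 CPM in the ethanol arm, and the 18 earlier libraries spanned 97.9 to 202 CPM.

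The allene oxide cyclases, which form the first ring-bearing precursor, were not alike. AOC1 (AT3G25760) had 12, 9.09 and 7.75 CPM in the water arm and 76.8, 50.2 and 101 CPM in the ethanol arm at 7 DAD, and AOC2 (AT3G25770) had 42.7, 17.4 and 11.5 CPM and 168, 156 and 238 CPM. The water and ethanol libraries did not overlap for either gene, with log2 fold changes of 2.98 (SE 0.38 and adjusted p = 1.01e-07) and 2.97 (SE 0.29 and adjusted p = 1.19e-09). AOC4, which is on another chromosome, was higher by 1.5 (adjusted p = 5.44e-10). AOC3, which lies beside AOC1 and AOC2, had 3.24, 9.89 and 2.51 CPM in the water arm and 3.79, 5.05 and 4.57 CPM in the ethanol arm, with overlapping groups and an adjusted p of 0.79. The AOC1 and AOC2 genes align over 656 bases at 87.5% identity, and reads that mapped to several places were counted at their primary alignment, so the division of counts within this trio is uncertain. Of the other 13-lipoxygenases, LOX6 was higher in the ethanol arm by 1.34 (adjusted p = 0.000101). The values of LOX3 (-0.39, adjusted p = 0.419) and LOX4 (1.28, adjusted p = 0.161) were not called.

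All 4 peroxisomal genes were called at 7 DAD, against 60.5% of all genes, and they split by enzyme. OPR3 (AT2G06050), the reductase that acts on the cyclised precursor, had 12.2, 11.5 and 9.58 CPM in the water arm and 48.4, 38.9 and 41.8 CPM in the ethanol arm, a log2 fold change of 1.96 (SE 0.28 and adjusted p = 7.53e-07). At 5 DAD it had 39.2, 31.4 and 47.7 CPM and 43.6, 36.4 and 29.3 CPM, and the 18 earlier libraries spanned 25.1 to 158 CPM. OPCL1, which activates the OPR3 product as a coenzyme A ester, was higher by 2.16 (SE 0.27 and adjusted p = 6.65e-08). ACX1 (AT4G16760), an acyl-CoA oxidase of the beta-oxidation that shortens the side chain, had 423, 521 and 505 CPM in the water arm and 74.6, 113 and 77.9 CPM in the ethanol arm. Every other library lay between 58.1 and 113 CPM, so ACX1 was set apart in the 3 water libraries of 7 DAD alone, and the log2 fold change was -2.45 (SE 0.17 and adjusted p = 1.63e-12). KAT2, the thiolase of the last beta-oxidation step, was lower in the ethanol arm, with a value of -1.23 (SE 0.12 and adjusted p = 1.16e-09). Both ACX1 and KAT2 also serve the breakdown of fatty acids in general. ACX1 shares a 139-base stretch of 92.8% identity with ACX5, another acyl-CoA oxidase gene.

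JAR1 (AT2G46370), which makes the isoleucine conjugate, had 33.4, 38 and 24.9 CPM in the water arm and 42, 46.7 and 50.4 CPM in the ethanol arm at 7 DAD. The groups did not overlap, but the difference was among the smaller ones, 0.54 (SE 0.17 and adjusted p = 0.00996). At 5 DAD JAR1 had 57.8, 63.7 and 57.2 CPM and 59.4, 75.7 and 61.9 CPM, and in the 18 earlier libraries 26.7 to 65.2 CPM. JMT, which methylates jasmonic acid, had 0.6, 1.75 and 1.37 CPM in the water arm and 10.7, 7.41 and 7.93 CPM in the ethanol arm, that is 5, 11 and 12 counts against 99, 66 and 92, and a log2 fold change of 2.82 (SE 0.56 and adjusted p = 9.34e-05). The receptor gene COI1 (AT2G39940) had 48.5, 55.2 and 53.1 CPM in the water arm and 32.4, 35.6 and 28.6 CPM in the ethanol arm. Every ethanol library thus lay below every water library, and the log2 fold change was -0.7 (SE 0.15 and adjusted p = 0.000176). Its 5 DAD values were 26.3, 30.3 and 27.4 CPM and 28.3, 26 and 34.3 CPM, and the range of the 18 earlier libraries was 21.4 to 35.3 CPM.

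**Figure D2:**
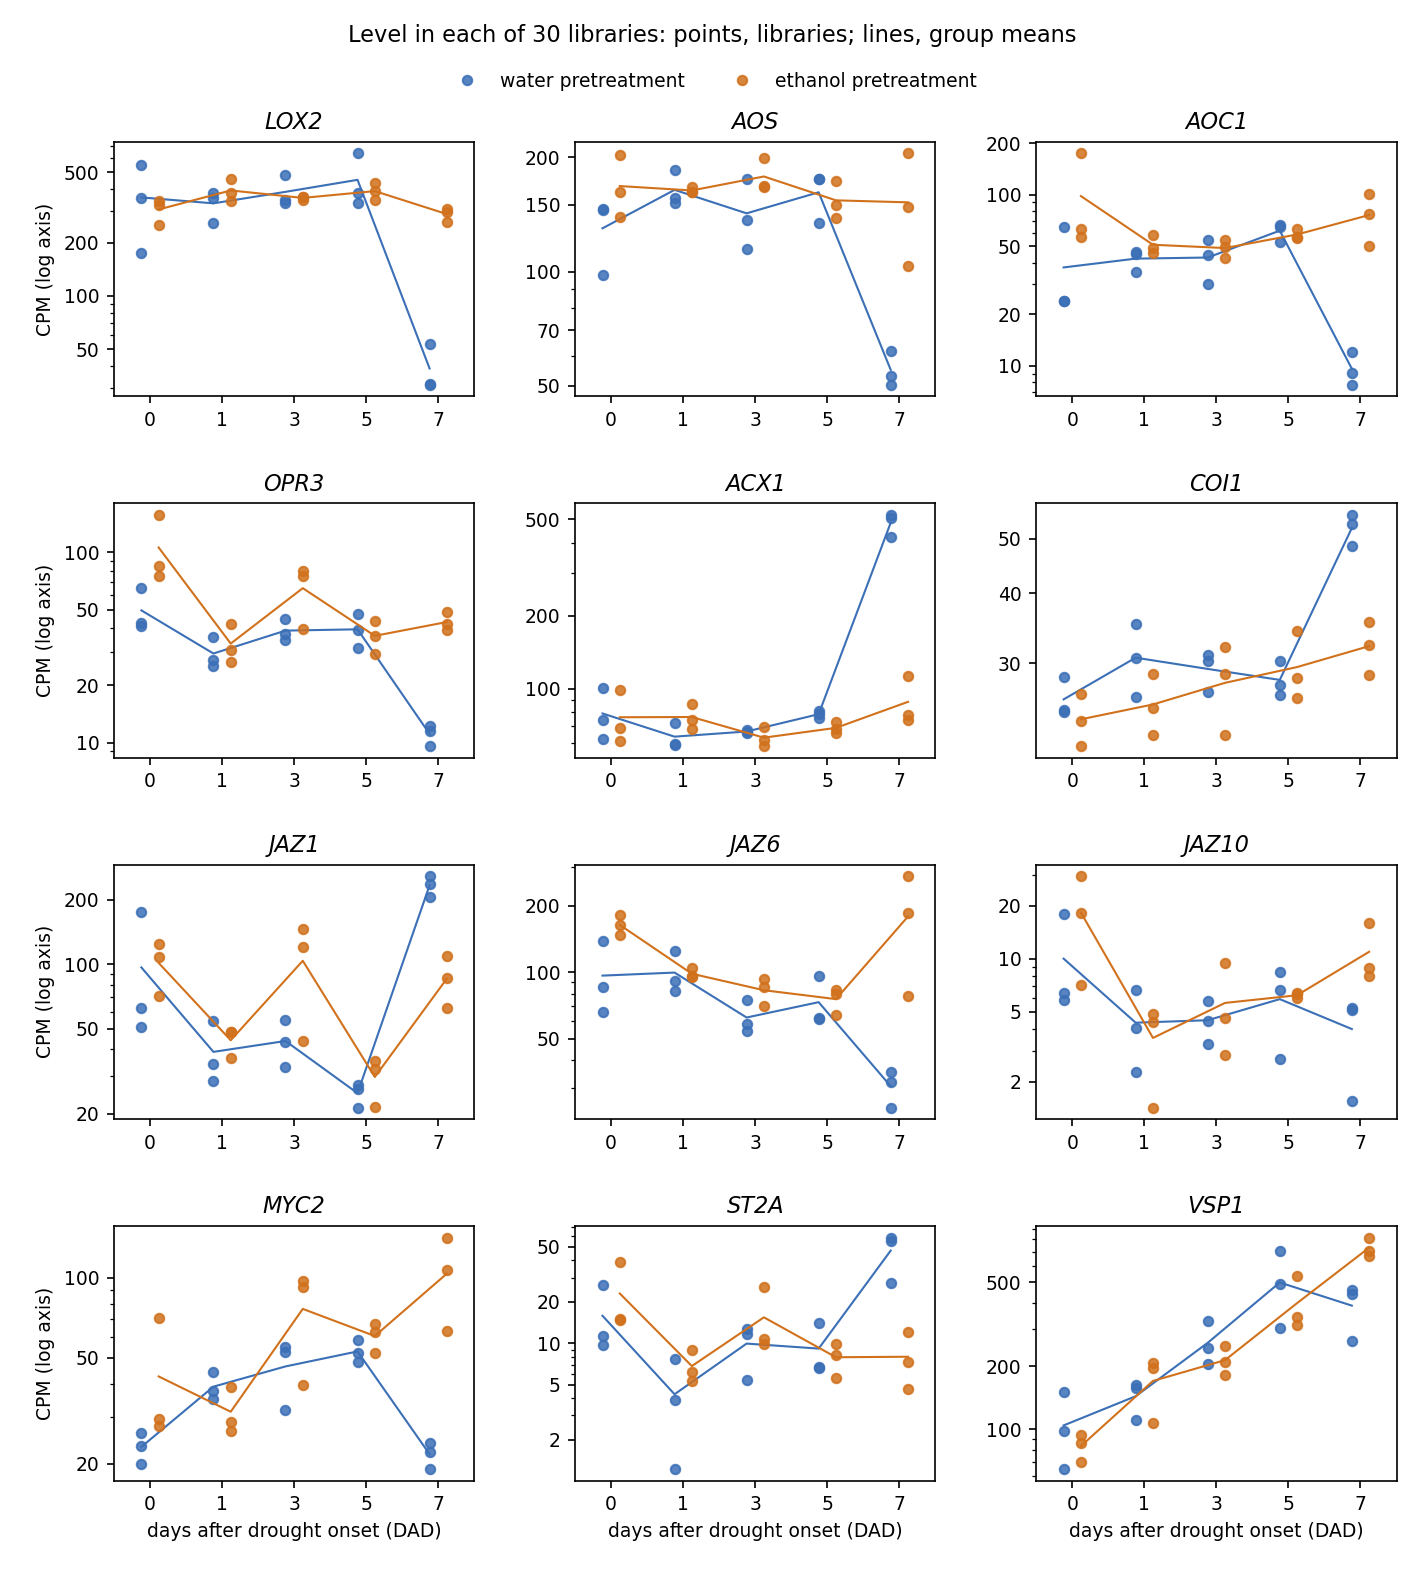
Levels in CPM on a log axis (vertical) are plotted against days after drought onset (horizontal) for 12 jasmonate genes, with 1 point per library and lines through the group means of the water and ethanol arms. At 7 DAD the water libraries of LOX2, AOS, AOC1, OPR3, JAZ6 and MYC2 lie below, and those of ACX1, COI1, JAZ1 and ST2A above, the ethanol libraries. VSP1 was higher at 7 than at 0 DAD in both arms, by 1.89 on the log2 scale in the water arm and 3.13 in the ethanol arm.

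The 12 JAZ genes encode the repressors that COI1 removes, and NINJA is the adaptor that links JAZ proteins to the TOPLESS corepressor. Together they gave 5 higher, 4 lower and 4 not called at 7 DAD, near the shares of all genes (32% higher and 28.6% lower). JAZ6 (AT1G72450) had 31.8, 24.4 and 35.2 CPM in the water arm and 186, 77.8 and 272 CPM in the ethanol arm. JAZ1 (AT1G19180) went the other way, with 207, 258 and 236 CPM in the water arm and 85.7, 62.4 and 109 CPM in the ethanol arm. Neither pair of groups overlapped, and the log2 fold changes were 2.55 (SE 0.3 and adjusted p = 2.91e-08) for JAZ6 and -1.45 (SE 0.36 and adjusted p = 0.00121) for JAZ1. JAZ7 (AT2G34600) had 29, 38.4 and 42.1 CPM in the water arm and 16.8, 0.786 and 26.6 CPM in the ethanol arm. Ethanol replicate 2, at 0.786 CPM, lay far below the other two. The call of JAZ7, -1.3 (SE 0.64 and adjusted p = 0.0886), was lost in 7 of 12 alternatives. Among these were DESeq2 (adjusted p = 0.175), library totals (0.169) and the fit without that library (-0.72, adjusted p = 0.287). Over the 12 alternatives the adjusted p of JAZ7 ran from 0.0264 to 0.287.

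JAZ10 (AT5G13220), a JAZ gene with splice forms that escape removal by COI1, had 1.56, 5.26 and 5.13 CPM in the water arm and 8.88, 7.97 and 16 CPM in the ethanol arm at 7 DAD, with no overlap between the arms and a log2 fold change of 1.48 (SE 0.55 and adjusted p = 0.024). Without ethanol replicate 3 of that day its adjusted p was 0.129, and without water replicate 1 it was 0.12, within a range of 0.0107 to 0.129 over the alternatives. At 5 DAD JAZ10 had 2.7, 6.62 and 8.37 CPM and 5.99, 6.36 and 6.27 CPM, and the 18 earlier libraries spanned 1.43 to 29.5 CPM. JAZ9 was higher in the ethanol arm by 1.73 (adjusted p = 2.19e-06), JAZ5 by 1.78 (0.0364) and JAZ8 by 2.21 (0.0704). JAZ8 rests on 4, 0 and 2 counts in the water arm against 13, 4 and 20, with overlapping levels, and JAZ5 and JAZ8 each lost their call in fits that left out 1 library. JAZ11 (-0.65) and JAZ12 (-0.54) were lower in the ethanol arm, with overlapping groups. JAZ2, JAZ3, JAZ4 and NINJA had values from -0.32 to 0.23 and were not called.

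Of the 5 bHLH genes, the activator genes MYC2 and MYC4 were higher in the ethanol arm at 7 DAD. MYC2 (AT1G32640) had 23.9, 19.1 and 22.2 CPM in the water arm and 107, 62.8 and 141 CPM in the ethanol arm, against 52.3, 48.1 and 58.2 CPM and 66.7, 52.2 and 62.3 CPM at 5 DAD. The lowest ethanol library was thus more than 2 times the highest water library at 7 DAD, and the log2 fold change was 2.25 (SE 0.32 and adjusted p = 6.45e-07). Over the 18 earlier libraries MYC2 spanned 20.04 to 97.2 CPM. MYC4 was higher by 1.98 (SE 0.24 and adjusted p = 3.77e-08), and the third activator, MYC3, had -0.34 (adjusted p = 0.263). JAM1, a bHLH gene whose product opposes MYC2 at shared targets, had 53.5, 56.8 and 39.9 CPM in the water arm and 17.6, 22.3 and 27.6 CPM in the ethanol arm and was lower in the latter, at -1.15 (SE 0.27 and adjusted p = 0.000529) on the log2 scale. The related JAM2 was not called (0.36, adjusted p = 0.298). A neighbouring gene overlaps MYC2, COI1, JAZ10 and JAZ12 on the opposite strand, and the counting used strand.

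Among the 4 genes of hormone inactivation, 2 were lower in the ethanol arm at 7 DAD and 0 higher, against 28.6% and 32% of all genes. ST2A (AT5G07010), a sulfotransferase that acts on hydroxyjasmonate, had 27.5, 58.5 and 55.3 CPM in the water arm and 4.66, 12 and 7.33 CPM in the ethanol arm. CYP94B3 (AT3G48520), a cytochrome P450 that hydroxylates the isoleucine conjugate, had 3.36, 6.06 and 4.56 CPM in the water arm and 0.217, 0.561 and 0.0862 CPM in the ethanol arm, that is 28, 38 and 40 counts against 2, 5 and 1. All water libraries lay above all ethanol libraries for both genes, with log2 fold changes of -2.56 (SE 0.51 and adjusted p = 9.9e-05) and -3.99 (SE 1.19 and adjusted p = 0.00536). CYP94B1 (0.14) and CYP94C1 (0.5), which act on the same conjugate, were not called.

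The vegetative storage protein genes, leaf markers of jasmonate output, were higher in the ethanol arm at 7 DAD. VSP2 (AT5G24770) had 563, 408 and 464 CPM in the water arm and 476, 1346 and 633 CPM in the ethanol arm, with overlapping groups and a log2 fold change of 0.78 (SE 0.39 and adjusted p = 0.0919). The call rested on ethanol replicate 2, without which the value was 0.24 (adjusted p = 0.638), and DESeq2 gave an adjusted p of 0.156, in a range of 0.0304 to 0.638 over the alternatives. At 5 DAD VSP2 had 895, 749 and 731 CPM and 612, 290.3 and 801 CPM, and the 18 earlier libraries spanned 91.3 to 788 CPM. VSP1, with 459.7, 264 and 439 CPM and 816, 705 and 670.5 CPM at 7 DAD, did not overlap between the arms and differed by 0.91 (SE 0.29 and adjusted p = 0.00842). VSP1 and VSP2 align at 82.3% identity over 1671 bases.

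Over the same 7 DAD comparison the leaf markers were called higher in the ethanol arm in 5 of 5 genes (median 2.41), and 4 of 5 evening clock genes were lower (median -0.97), with sums of 96.6 to 149 CPM in the water arm and 55.7 to 66.6 CPM in the ethanol arm. Of 8 floral genes, 5 were higher in the ethanol arm, with sums of 92 to 189 CPM in the water arm and 218 to 267 CPM in the ethanol arm. Of 9 touch and wound genes, 3 were higher and 2 lower in the ethanol arm (median -0.04). Their sums were 1294 to 2024 CPM in the water arm and 330 to 475 CPM in the ethanol arm. The part of any of these in the jasmonate values was not tested.

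The change from 5 to 7 DAD shows in which arm each gene moved. In the water arm 23 of the 40 genes were called, 10 higher and 13 lower at 7 DAD, against 64.5% of all genes (31.8% higher and 32.7% lower). In the ethanol arm 9 were called, 8 higher and 1 lower, against 8.5% of all genes (5.34% higher and 3.16% lower). In the water arm LOX2 fell by 3.54 on the log2 scale, AOC2 by 3.20, AOC1 by 2.68, AOS by 1.55, OPR3 by 1.83, OPCL1 by 2.2, MYC4 by 2.09 and MYC2 by 1.28. In the ethanol arm none of these 8 was called, with values from -0.43 for LOX2 to 0.78 for MYC2. In the water arm ACX1 rose by 2.62, KAT2 by 1.42, COI1 by 0.9, JAM1 by 1.71, ST2A by 2.35 and CYP94B3 by 3.41, and the highest ethanol value among these 6 was 0.68 for CYP94B3, with none of them called.

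JAZ1 rose from 5 to 7 DAD in both arms, and JAZ7 rose in the water arm, with an uncertain call in the ethanol arm. JAZ1 had 21.4, 26.2 and 27.2 CPM in the water arm and 32.4, 21.4 and 35.1 CPM in the ethanol arm at 5 DAD, so that its 7 DAD values were higher in every library of both arms, by 3.23 (SE 0.39 and adjusted p = 4.2e-08) in the water arm and 1.52 (SE 0.37 and adjusted p = 0.013) in the ethanol arm. JAZ7 had 0.207, 1.14 and 1.58 CPM and 0.884, 2.22 and 7.4 CPM at 5 DAD and rose by 5.19 (SE 0.82 and adjusted p = 3.64e-06) in the water arm. Its change of 2.1 (SE 0.7 and adjusted p = 0.0797) in the ethanol arm had overlapping groups. Ethanol replicate 2 of 7 DAD, at 0.786 CPM, lay below every ethanol library of 5 DAD. The call was lost in 6 of 12 alternatives, DESeq2 among them (adjusted p = 0.127, range 0.00859 to 0.344 over the alternatives). JAZ6 moved in opposite directions, with -1.26 in the water arm (adjusted p = 0.00051) and 1.24 in the ethanol arm (adjusted p = 0.00781). JAZ2, JAZ9, JAZ12, CYP94C1 and VSP1 were the other genes called higher at 7 DAD in the ethanol arm, and JAR1 fell there by 0.50. The count of 9 in the ethanol arm was 5 in a fit of those groups alone and 4 without ethanol 7 DAD replicate 1. In the water arm touch and wound sums were 97.7 to 178 CPM at 5 DAD and 1294 to 2024 CPM at 7 DAD. Of the 9 genes 5 were higher and 1 lower. In the ethanol arm the sums were 209 to 231 and 330 to 475 CPM, with 2 genes higher and 0 lower. Evening clock genes fell in 1 of 5 (water) and 5 of 5 (ethanol), and leaf markers in 5 of 5 and 2 of 5. The part of these in the 5 to 7 DAD changes was not tested.

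**Figure D3:**
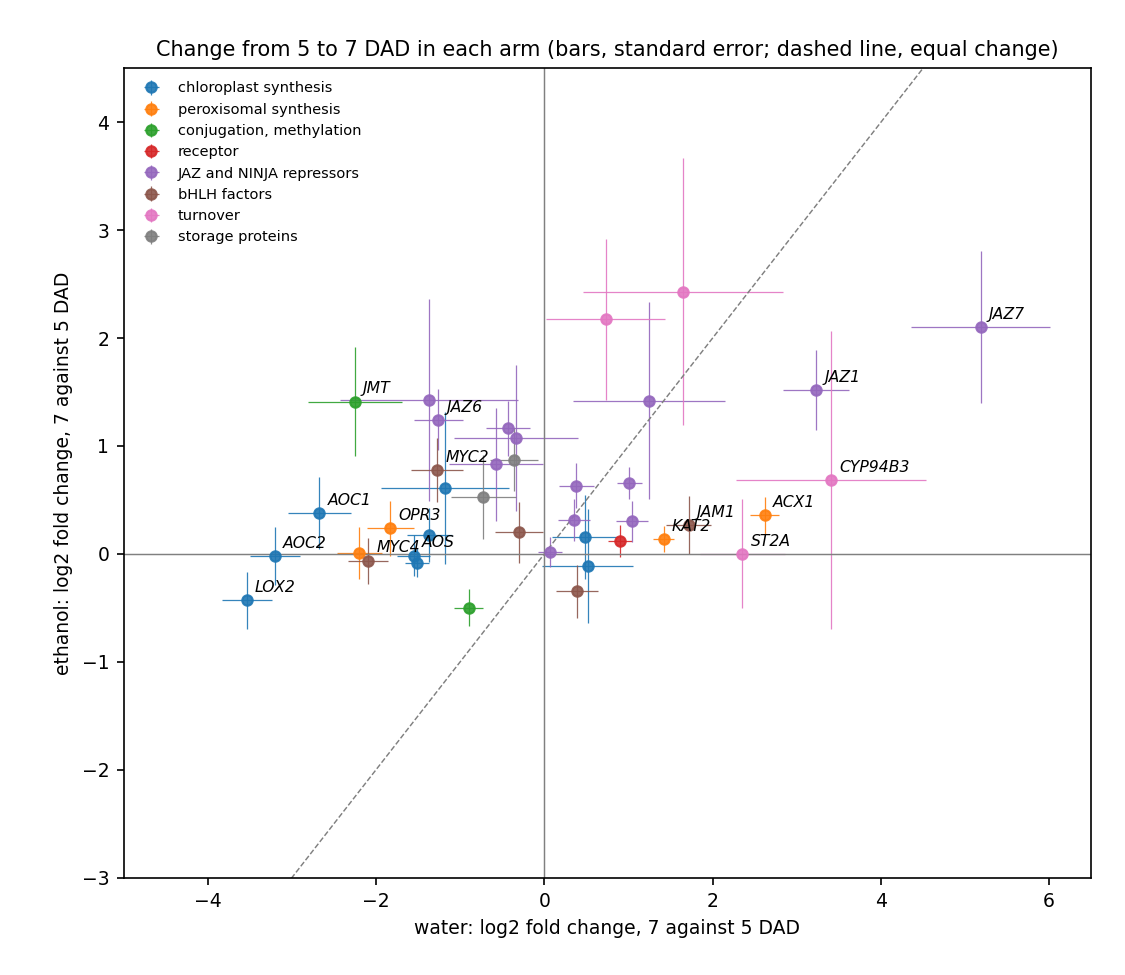
Each point is 1 of the 40 tested jasmonate genes, with its log2 fold change from 5 to 7 DAD in the water arm (horizontal) and in the ethanol arm (vertical), bars of 1 standard error, and colour for its role. LOX2, AOC2 and AOC1 lie at -3.54, -3.20 and -2.68 on the water axis and between -0.43 and 0.38 on the ethanol axis, while ACX1 lies at 2.62 and 0.36.

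At 0 DAD, after the pretreatment and before drought, 4 jasmonate genes were called, all higher in the ethanol arm (10% of 40, against 1.71% of all genes, 0.764% higher and 0.951% lower). OPR3 had 65.1, 42.7 and 40.9 CPM in the water arm and 85.3, 75.2 and 158 CPM in the ethanol arm, and AOC1 had 64.9, 23.8 and 23.9 CPM and 56.6, 63.3 and 174 CPM. The OPR3 groups did not overlap and differed by 1.11 (SE 0.26 and adjusted p = 0.0323). The AOC1 groups overlapped and differed by 1.39 (SE 0.34 and adjusted p = 0.0439). JAZ2 had 43.5, 29.9 and 29.5 CPM in the water arm and 47.3, 46.7 and 83 CPM in the ethanol arm, and JAZ9 had 54.1, 38.6 and 38.7 CPM and 61.2, 72.8 and 122 CPM. Ethanol replicate 3 was the highest of the 6 libraries in each of these 4 genes, and no library of the water arm reached the lowest ethanol value of JAZ2 or JAZ9. The log2 fold changes were 0.79 (SE 0.21 and adjusted p = 0.0687) for JAZ2 and 0.97 (SE 0.26 and adjusted p = 0.0693) for JAZ9.

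The calls at 0 DAD depended on single libraries. None of the 4 was called without ethanol replicate 3, when the values were 0.69 for OPR3, 0.66 for AOC1, 0.45 for JAZ2 and 0.61 for JAZ9, nor without water replicate 2 or water replicate 3. Without water replicate 1, 7 jasmonate genes were called, CYP94B3, JAZ6 and LOX3 being the added ones, against 1.71% of all genes in that fit. In a fit of the 2 groups alone 0 were called. Ethanol replicates 1 and 2 of 0 DAD had the smallest totals of the 30 libraries, 3625884 and 4037295 counts, against 8972912 in replicate 3. Rank correlations between libraries of that group went down to 0.947, the lowest among the 10 groups. MYC2, at 23.3, 26.1 and 20.04 CPM in the water arm and 29.5, 27.7 and 70.5 CPM in the ethanol arm, did not overlap and had 0.92 (SE 0.31 and adjusted p = 0.186). LOX2, at 546, 359 and 175 CPM and 328, 253 and 343 CPM, overlapped widely. The median over the jasmonate genes was 0.23, against -0.02 over all genes. Of the evening clock genes, 2 of 5 were higher in the ethanol arm on this day, with sums of 87.3 to 102 CPM in the water arm and 135 to 169.9 CPM in the ethanol arm, and 0 of 9 touch and wound genes were called. The part of harvest time in the 0 DAD values was not tested.

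At 1 and 5 DAD no jasmonate gene was called between the arms by edgeR or by DESeq2, as for all genes in the edgeR fit (0% on both days). At an unadjusted p below 0.05 there were 0 of 40 jasmonate genes at 1 DAD, against 3.05% of all genes, and 1 at 5 DAD (JAZ7, 1.79), against 4.07%. LOX2 was at 383, 359 and 258 CPM in the water arm and 381, 459 and 343 CPM in the ethanol arm at 1 DAD, and MYC2 was at 44.3, 37.6 and 35 CPM and 38.9, 28.8 and 26.5 CPM. Both pairs of groups overlapped. At 5 DAD, before the split of 7 DAD, every gene named above with its 5 DAD values overlapped between the arms. Some other jasmonate genes did not overlap on that day. ACX1, JMT and JAZ12 were lower, and KAT2, MYC3 and AOC4 higher, in every ethanol library than in every water library. None of these was called, and the share of all genes without overlap was not determined.

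At 3 DAD no jasmonate gene passed the threshold either, against 0.992% of all genes (0.888% higher and 0.104% lower), while 7 of 40 had an unadjusted p below 0.05, against 7.57% of all genes, and all 7 were higher in the ethanol arm, against 4.9% of all genes in that direction. They were LOX4, JAZ1, JAM1, OPR3, LOX3, JAZ7 and MYC2. LOX4 had 2.56, 1.96 and 1.66 CPM in the water arm and 20.3, 9.79 and 0.726 CPM in the ethanol arm, a log2 fold change of 2.32 (SE 0.7 and adjusted p = 0.173). JAZ1 had 54.6, 33 and 43.5 CPM and 146, 121 and 43.8 CPM, and MYC2 had 55.1, 31.7 and 52.5 CPM and 92.1, 97.2 and 39.7 CPM. In these 3 genes ethanol replicates 1 and 2 lay above every water library, and replicate 3 lay within or below the water range. OPR3, with 44.5, 34.8 and 37.1 CPM and 79.9, 75.1 and 39.7 CPM, had the same order of libraries. DESeq2 called 1 gene, LOX4 (adjusted p = 0.0726, range 0.00526 to 0.898 over the alternatives).

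Without ethanol replicate 3, 5 jasmonate genes were called at 3 DAD, namely LOX4 (2.87), JAZ1 (1.61), MYC2 (1.03), JAM1 (1.02) and OPR3 (1.00), against 1.58% of all genes in that fit. It was 1 of 6 fits that each left out 1 library, and the other 5 gave 0 calls. The touch and wound genes moved with the same libraries: 8 of 9 were called higher in the ethanol arm (median 2.35), and their summed levels in ethanol replicates 1, 2 and 3 were 1581, 1239 and 366 CPM, with 233 to 270.1 CPM in the water arm. ZAT12 was the one not called. The sum of the evening clock genes was 268 to 325 CPM in the water arm and 319 to 355 CPM in the ethanol arm, with 0 of 5 called. Whether handling of the plants at harvest had a part in the 3 DAD values was not tested.

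**Figure D4:**
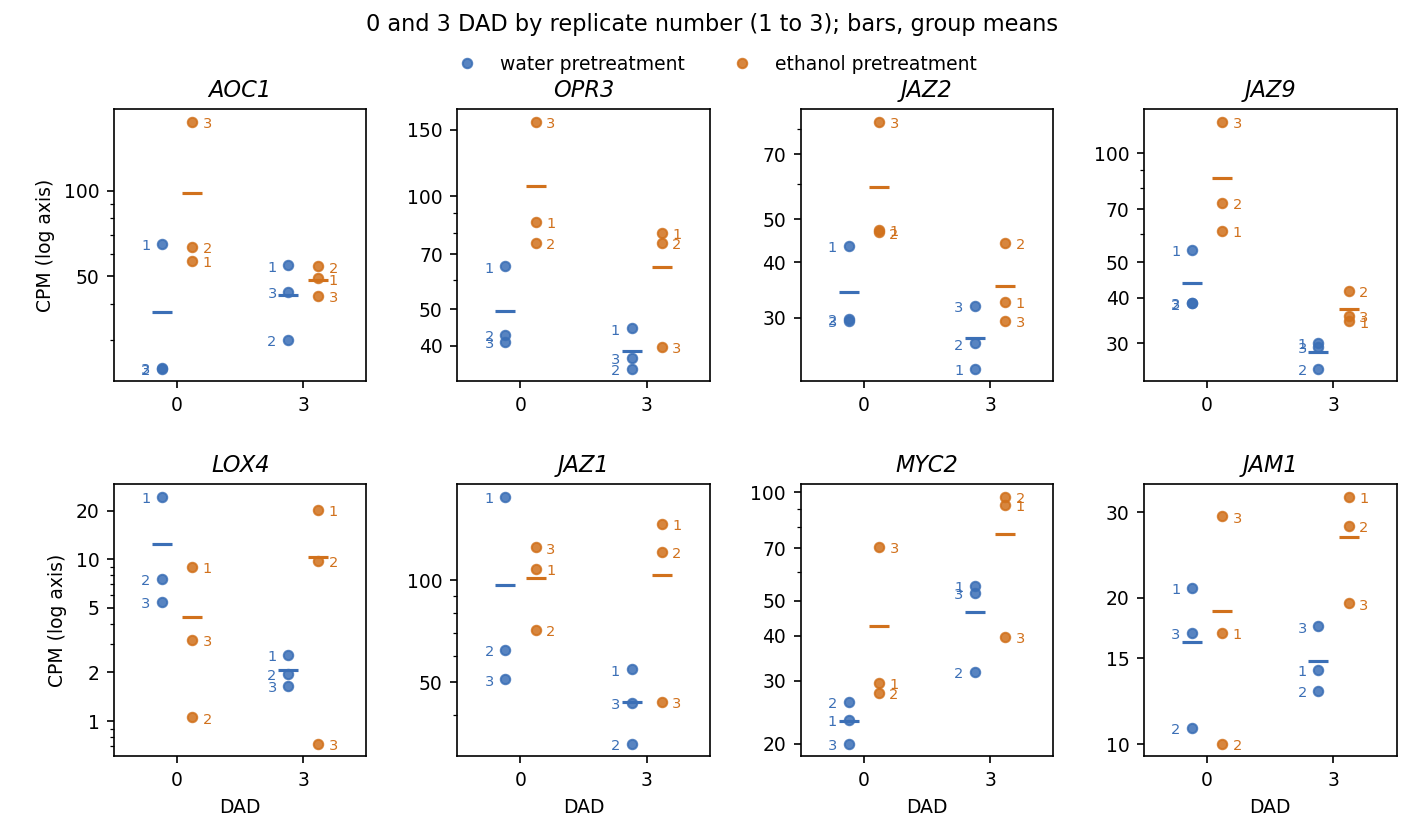
Levels in CPM on a log axis (vertical) are plotted at 0 and 3 DAD (horizontal) for 8 jasmonate genes, with the replicate number beside each point and a bar at each group mean. At 0 DAD ethanol replicate 3 is the highest library for AOC1, OPR3, JAZ2 and JAZ9, and at 3 DAD ethanol replicate 3 is the lowest of its arm for all 8 genes except JAZ9.

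Against 0 DAD, 6 jasmonate genes were called in the water arm at 1 DAD, 2 higher and 4 lower (12.9% of all genes, 5.81% higher and 7.07% lower). The count was 15 at 3 DAD, 8 higher and 7 lower (19.6%, 9.25% and 10.4%), 12 at 5 DAD, 8 higher and 4 lower (33%, 16.2% and 16.8%), and 33 at 7 DAD, 15 higher and 18 lower (70%, 34.5% and 35.5%). The ethanol arm had 17 at 1 DAD, 3 higher and 14 lower (18.3%, 9.35% and 8.9%), 16 at 3 DAD, 6 higher and 10 lower (24.6%, 13% and 11.6%), 23 at 5 DAD, 8 higher and 15 lower (33.3%, 16.8% and 16.4%), and 18 at 7 DAD, 11 higher and 7 lower (41.5%, 22% and 19.5%). The lower genes of the ethanol arm at 1 DAD were led by JAZ8 (-4.91), CYP94B3 (-4.03) and CYP94C1 (-2.91). JAZ8 had only 2, 1 and 0 counts at 1 DAD, against 6, 16 and 46 at 0 DAD. CYP94B3 had 1, 0 and 2 against 3, 13 and 19, so the size of both values is uncertain. The count of 17 was 9 without ethanol 0 DAD replicate 3 and 11 or 10 without ethanol 1 DAD replicate 1 or 2, and the share of all genes in these fits was 16.4%, 12.8% and 13.8%. In the water arm the lower genes at 1 DAD were CYP94C1, ST2A, JAZ1 and OPR3. That count of 6 was 0 without water 1 DAD replicate 3 and 1 without water 0 DAD replicate 1, and the count of 15 at 3 DAD was 7 without water 0 DAD replicate 1 and 9 without water 3 DAD replicate 1 or 2. With library totals the split of higher and lower genes moved from 8 and 4 to 12 and 3 in the water arm at 5 DAD, from 8 and 15 to 11 and 13 in the ethanol arm at 5 DAD, and from 11 and 7 to 13 and 5 in the ethanol arm at 7 DAD. In the water arm 9 of 9 touch and wound genes were lower at 3 and at 5 DAD. Their sums were 1671 to 2443 CPM at 0 DAD, 233 to 270 at 3 DAD and 97.7 to 178 at 5 DAD. In the ethanol arm 1 was lower and 3 higher at 3 DAD, and 7 were lower at 5 DAD. Evening clock genes were lower at 1 DAD in 3 of 5 (water) and 4 of 5 (ethanol), and higher at 3 DAD in 5 and 4. The part of handling and harvest time was not tested.

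VSP1 and VSP2 were higher at 3, 5 and 7 DAD than at 0 DAD in both arms. From 5 to 7 DAD the values in the water arm were -0.36 for VSP1 and -0.73 for VSP2, neither of them called, although all 3 VSP2 libraries of 7 DAD lay below those of 5 DAD. VSP1 had 151, 97.9 and 64.9 CPM in the water arm and 69.96, 86 and 94.2 CPM in the ethanol arm at 0 DAD and was higher at 5 DAD by 2.25 in the water arm and 2.25 in the ethanol arm. AOC4 rose from 0 to 5 DAD by 0.99 in the water arm and 1.27 in the ethanol arm, and MYC4 by 0.96 and 0.77. At 7 DAD against 0 DAD, AOC4 was lower in the water arm (-0.53) and higher in the ethanol arm (1.19), and MYC4 likewise (-1.13 and 0.71). MYC2 was higher in the ethanol arm (1.25 (SE 0.31 and adjusted p = 0.00189)) and was not called in the water arm (-0.08, adjusted p = 0.826).

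The response from 0 to 7 DAD differed between the arms, by a test of that difference, in 26 of 40 jasmonate genes (16 more positive and 10 more negative in the ethanol arm), against 50.8% of all genes (27.6% and 23.2%). With library totals the split was 17 and 9, and that of all genes moved from 5312 and 4462 to 6178 and 3481. The differences were led by JMT (4.12 (SE 0.79 and adjusted p = 9.42e-05)) and LOX2 (3.12 (SE 0.39 and adjusted p = 1.62e-07)) in 1 direction and by CYP94B3 (-6.29 (SE 1.64 and adjusted p = 0.00242)) and JAZ7 (-3.42 (SE 0.96 and adjusted p = 0.00465)) in the other. Any difference between the arms at 0 DAD enters these values. At 0 DAD JMT had 6.27, 5.53 and 2.06 CPM (water) and 1.09, 2.11 and 2.23 CPM (ethanol). JAZ7 had 5.85, 2.21 and 1.34 CPM and 4.37, 11.9 and 24.4 CPM. CYP94B3 had 14, 0 and 0 counts against 3, 13 and 19.

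A further 36 genes tied to jasmonate, outside the 41, gave 9 higher and 11 lower of 34 tested at 7 DAD, with a median of -0.16, and 0 called at the other days. The share called at 7 DAD was 58.8%, close to the 60.5% of all genes. By role, 2 of 9 synthesis genes were higher and 4 lower, 3 of 7 signaling genes higher and 2 lower, 0 of 5 turnover genes higher and 2 lower, 3 of 7 output genes of the MYC branch higher and 2 lower, and 1 of 6 output genes of the ethylene response factor branch higher and 1 lower. FAD8, a chloroplast desaturase that makes the fatty acid precursor, had 3.00, 0.319 and 0.912 CPM in the water arm and 6.28, 5.84 and 10.3 CPM in the ethanol arm, a log2 fold change of 2.35. The 4 lower synthesis genes were PXA1 (-1.21), MFP2 (-1.16), ACX5 (-0.94) and AIM1 (-0.61), which belong to peroxisomal import and beta-oxidation. JOX3, an oxygenase that inactivates jasmonic acid, had 13.4, 27 and 53.4 CPM and 7.69, 4.71 and 3.79 CPM and was lower in the ethanol arm by 2.54 on the log2 scale, all 3 water libraries lying above the ethanol libraries.

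Among the outputs, CLH1, a chlorophyllase gene long used as a coronatine-induced marker, had 8.04, 10.4 and 6.5 CPM in the water arm and 70.7, 48.6 and 85.1 CPM in the ethanol arm, a log2 fold change of 3.05 (adjusted p = 9.71e-08). CORI3, another coronatine-induced gene, went the other way (-2.33, adjusted p = 1.59e-07). The gene of largest change in the signaling list was MYC5, a relative of MYC2 known from flowers, at 0.12, 0 and 0.228 CPM in the water arm and 1.95, 1.57 and 3.54 CPM in the ethanol arm (4.09). In the ethylene response factor branch ORA59 had 0.48, 0.798 and 0.342 CPM and 18.2, 2.81 and 4.83 CPM (4.01), with ethanol replicate 1 well above the other two. Each branch of outputs thus held genes of both directions.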

How the data were processed

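Gene counts of 30 Lasy-Seq libraries of Arabidopsis shoots were used as the authors deposited them: whole-number counts per gene, made from read 1 with Trimmomatic, HISAT2 and strand-aware featureCounts (whole gene spans, primary alignments) against TAIR10. A second deposited table held the same counts divided by DESeq2 size factors (a signal of normalized counts, ratio 1 to the recomputed value), and no test used it. Counts were tested with edgeR 4.0.16 in R 4.3.3: filterByExpr kept 19249 of 27417 genes (8168 removed, 99.95% of counts kept), TMM factors were 0.915 to 1.16, and glmQLFit took 1 mean per group over all libraries with 20 residual degrees of freedom. Of the 41 jasmonate genes, 36 had a mean of at least 10 counts. Log2 fold changes have SE = |log2 fold change| divided by the square root of F. The procedure was tested on simulated data.

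Groups came from the treatment labels. Same-numbered replicates were checked as pairs: deviations from group means correlated from -0.108 to 0.212, and in 0 of 15 comparisons did all 3 pairs exceed 0.1, so no block was used. The members, lists and tests were chosen with earlier results of these data known. Values in single libraries are given for 8 genes chosen by role (MYC2, COI1, JAR1, LOX2, AOS, OPR3, JAZ10, VSP2), for genes called between the arms at 0, 1, 3 or 5 DAD, and for the 5 highest and 5 lowest called at 7 DAD. Those of JAM1, AOC3, VSP1 and LOX4 were added after values were seen. Counts of JAZ8 are also given, outside this rule. Alternatives were DESeq2 1.42.0, DESeq2 size factors, library totals, no filter, the compared groups alone, a replicate block and leaving out each library. Windows of 250 bases before gene starts came from the RefSeq TAIR10.1 genome, and genes were compared with BLAST 2.17.0 (stretches of at least 100 bases at 90% identity). The alignments of AOC1 with AOC2 and of VSP1 with VSP2 were read from the same search without these limits.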

Additional observations from a re-analysis of the deposited data

Results flagged for a closer look

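The change from 0 to 7 DAD differed between the arms in 26 jasmonate genes by a test of the difference itself (edgeR, adjusted p below 0.1). Values here are log2 changes in the ethanol arm minus those in the water arm, so any difference between the arms at 0 DAD enters them. They were positive for 16 genes: JMT 4.12, LOX2 3.12, LOX4 2.82, AOC2 2.4, OPCL1 1.89, MYC4 1.85, JAZ6 1.79, AOC4 1.72, AOC1 1.59, LOX6 1.44, MYC2 1.33, VSP2 1.31, VSP1 1.24, AOS 1.09, OPR3 0.85 and JAZ9 0.76. They were negative for 10 genes: CYP94B3 -6.29, JAZ7 -3.42, ST2A -3.05, ACX1 -2.39, LOX3 -1.64, JAZ1 -1.52, JAM1 -1.4, KAT2 -1.33, JAZ12 -0.75 and COI1 -0.58. Single libraries decided some of these calls. LOX3 was lost without ethanol 0 DAD replicate 3 (-0.80, adjusted p = 0.223, range over the alternatives 0.00336 to 0.223) and LOX4 without water 0 DAD replicate 1 (1.87, adjusted p = 0.136, range 0.00536 to 0.136). JAZ9, OPR3 and VSP2 were each lost in several fits that left out 1 library, and COI1 was lost with library totals (-0.38, adjusted p = 0.168, range 0.0223 to 0.168).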

How the results depend on the processing

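No jasmonate gene changed direction while called under any alternative run. The count of called genes moved by over 1.5 times in these settings: between the arms at 0 DAD it went from 4 to 0 with the compared groups alone, at 3 DAD from 0 to 2 with those groups alone, to 1 with DESeq2 and to 2 with no filter, and from 5 to 7 DAD in the ethanol arm from 9 to 5 with those groups alone. Leaving out 1 library at a time gave 0 to 7 at 0 DAD, 0 to 5 at 3 DAD and 25 to 28 at 7 DAD (main 29) between the arms. It gave 0 to 8 (main 6) in the water arm at 1 DAD and 7 to 15 (main 15) at 3 DAD, 9 to 15 (main 17) in the ethanol arm at 1 DAD, 4 to 6 (main 9) from 5 to 7 DAD in the ethanol arm, and 24 to 27 (main 26) for the difference of the 7 DAD responses. Each fit that left out 1 library has fewer samples, the counts moved both up and down, and the cause of these shifts was not tested. Same-numbered libraries were little correlated, but the labels do not say whether they were paired. With a replicate block the counts between the arms were 4, 0, 0, 0 and 29 in the order of the days, from 5 to 7 DAD 23 in the water arm and 8 in the ethanol arm, and 26 for the difference. Depth limits JAZ4, JAZ8, CYP94B1 and CYP94B3, which had means below 10 counts per library, and DAD1, which had none. Counts at 0 and 3 DAD change with single libraries, and days differ in plant age.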
